A study of Mus musculus with 6 samples.

Results

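The oligoadenylate synthetase (Oas) and Mx genes of the mouse were examined in side population cells of the anterior pituitary. The members were every probe whose gene name on the array was Oas1a, Oas1b, Oas1g, Oas2, Oas3, Oasl1, Oasl2, Mx1 or Mx2. These are 9 of the 20924 genes or unnamed transcripts tested, and they are read by 13 of the 39429 probes. They were chosen on the measured difference between genotypes after 3 days, which was already known, so every value of that comparison, and every value set against a 3 day array, is given as a description with no test.

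RNA came from female pituitaries, from cells sorted for their efflux of Hoechst dye with the cells highest in Sca1 left out. All mice carried iDTR, an inducible receptor for diphtheria toxin. Every mouse was given the toxin, in doses of 4 ng for each g of body weight that were repeated 2 times daily. GHCre/iDTR mice also carried a Cre recombinase named for growth hormone, which puts the receptor on growth hormone cells, and -/iDTR controls had no Cre. The 6 arrays form 4 groups, which are GHCre after 3 days of toxin (2 arrays), control after 3 days (2 arrays), GHCre after 10 days (1 array) and control after 10 days (1 array). Each sort gave 25000 to 50000 cells, from which 1 ng of RNA was amplified. Strain and age, and whether animals were pooled, are not given in the sources used here. Nor do the labels say that the 2 arrays of a group came from separate mice, so their spread may be technical.

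Both families are effectors of the interferon response. Cells that sense viral or misplaced nucleic acid secrete interferons, and the interferon receptors act through Jak kinases and Stat and Irf factors on a shared set of target genes. The OAS enzymes bind double-stranded RNA and make short chains of 2′-5′-linked adenylate, a second messenger that leads to the breakdown of RNA in the cell. Oasl1 and Oasl2 are the OAS-like proteins, of which mouse Oasl1 is known as a brake on the translation of Irf7. Mx proteins are large GTPases related to dynamin that block the replication of many viruses, in the nucleus for mouse Mx1 and in the cytoplasm for mouse Mx2. In many laboratory strains Mx1 and Mx2 carry defects that stop a working protein from being made, and Oas1b is cut short. The RefSeq annotation used for names, which describes the C57BL/6J strain, lists Mx1, Mx2 and Oas1b as transcribed pseudogenes and the other 6 members as protein-coding. The arrays measure their transcripts only.

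The probes are shown because they decide which end of each transcript was read. Of the 13 member probes, 6 hold the polyadenylation hexamer AATAAA, searched on the strand of the probe, against 12.6% of all 39429 probes. The stretches of 30 bases around it, with the hexamer in capitals, are these.
Mx1: tttagcgcttccAATAAAattcttgctaag
Oas2: tatatgcttcatAATAAAtggtttctttgt
Oasl1: tttcaaatggagAATAAAaaagccattgtt
Oasl2: tgtatgacaagtgcttgttaAATAAAgaag
Oas1a, probe 1: aagtctgatcaacAATAAAccacagcaggt
Oas1g, probe 2: aggtatgatgaaAATAAAaggtacctggaa
A match of these letters is a description and not a mapped site of cleavage. No member probe shares a run of 20 bases with a probe of another gene, and the longest run shared by probes of different members is 9 bases. The OAS genes are close copies of each other, so hybridisation across copies at shorter matches was not tested. Probes 1 and 2 of Oas1b overlap by 42 bases and are not independent readings. The first bases of that overlap are in capitals in these stretches.
Oas1b, probe 1: ggactgaactTCTGAACCTGTAAGCCAACC
Oas1b, probe 2: gTCTGAACCTGTAAGCCAACCCCAATTAAA

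The arrays differed in brightness. The 75th percentile of signal ran from 186.15 to 298.51, and 53.8% to 65.7% of probes were well above background, with the lowest of both in replicate 1 of the 3 day controls. Levels below are log2 signal minus the log2 of that percentile on the same array, and a probe is said to be above background where the scanner software marks it so. Slide 1 and slide 3 each held a 3 day array of both genotypes, slide 3 also held the 10 day GHCre array, and the 10 day control lay alone on slide 2. After 10 days slide and genotype therefore cannot be told apart, and in control neither can slide and time. For some arrays the free-text description names another group than the title does, and groups were taken from the titles, which the genotype and treatment fields match. Gh, which encodes growth hormone, was at 5.46 and 2.20 on the GHCre arrays and 5.69 and 3.65 on the control arrays after 3 days, which overlap. After 10 days it was at 2.21 in GHCre and 7.86 in control. Gh after 3 days therefore does not check the labels.

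**Figure D1:**
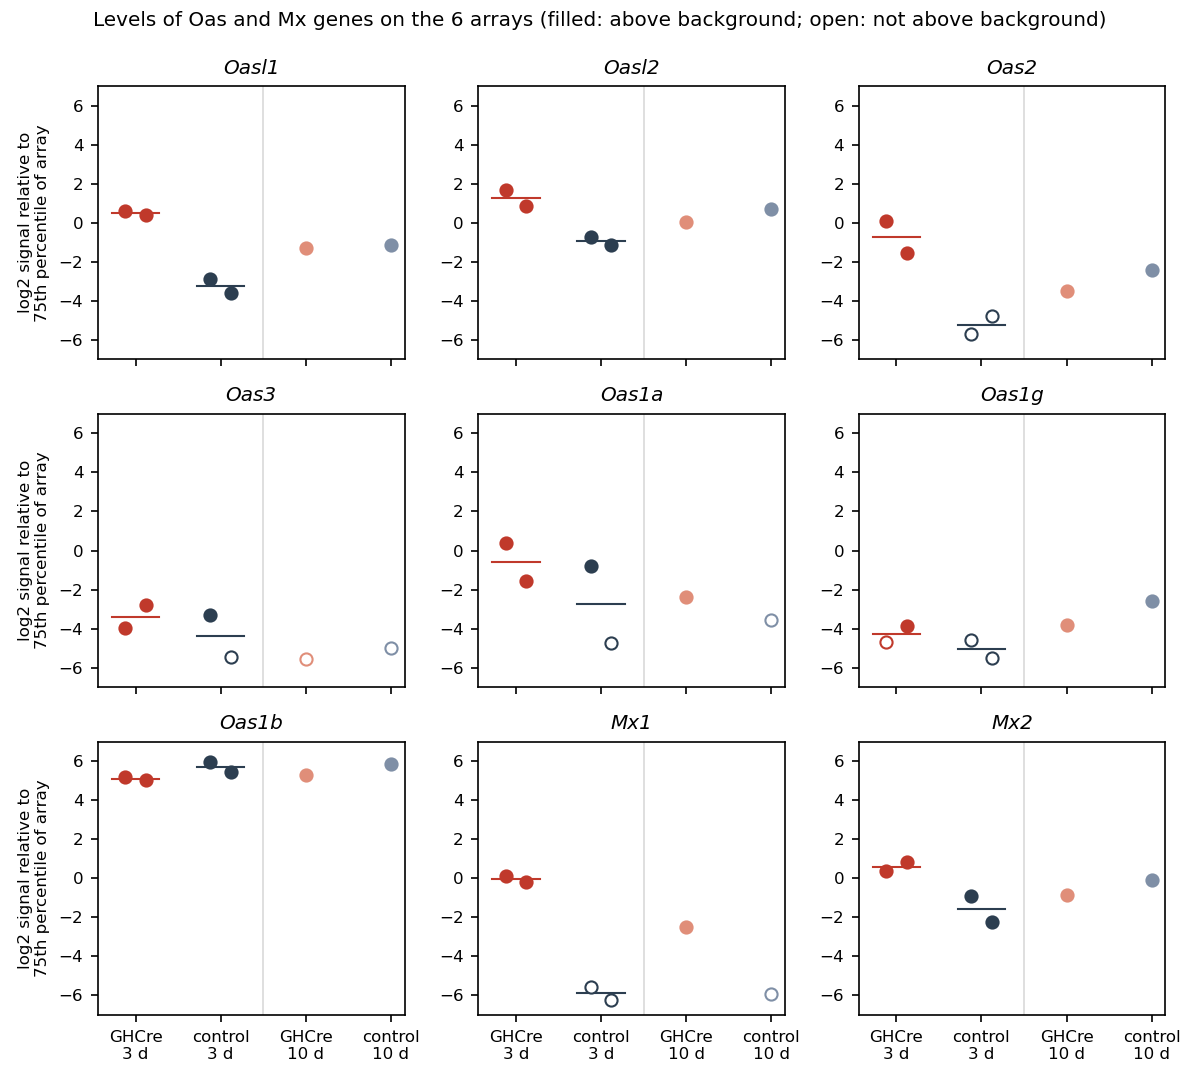
Levels of the 9 members on the 6 arrays, as log2 signal relative to the 75th percentile of the array. Each point is 1 array, filled where the probe was above background and open where it was not, and short lines are the 3 day means. Mx1 and Oas2 are above background on both 3 day GHCre arrays and on neither 3 day control array.

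After 3 days of toxin, 5 of the 9 members were higher on both GHCre arrays than on both control arrays, namely Mx1, Oas2, Oasl1, Oasl2 and Mx2. Over all genes tested, 16.7% had this order, so the share among the members describes how they were picked and nothing is read from it. Each of the 5 differed by at least 1 log2 unit, as did 9.67% of all genes. No member was lower by that much without overlap, against 7.47% of all genes. Above background on both GHCre arrays and on neither control array were 2 members, Mx1 and Oas2, against 2.15% of all genes. Only Oas1b had the reverse order, which 21.3% of all genes had. Oas1a, Oas1g and Oas3 had overlapping groups. The median difference over the 9 members was 2.17, with a range from -0.60 to 5.86, and over all genes it was -0.04. No gene on the array passed limma's adjusted p threshold of 0.05 in this comparison (0% called), the lowest adjusted p being 0.653, while 1376 genes had an unadjusted p under that value. In RNA from a sorted fraction, more cells of a type and more RNA per cell cannot be told apart.

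Mx1, the nuclear Mx GTPase, had the highest measured difference in this scaling, against controls below background. Its probe lies on mouse chromosome 16, minus strand, from 97668644 to 97668703 in mm9. It had a signal of 326 and 259 on the 3 day GHCre arrays, against 3.94 and 3.35 on the 3 day control arrays. As levels these were 0.13 and -0.20 in GHCre and -5.56 and -6.22 in control. Both GHCre arrays were above background and neither control array was, so the groups did not overlap and the controls give only a bound. With each control array set no lower than its dimmest signal above background, Mx1 was at least 14.5-fold higher in GHCre. The measured log2 difference was 5.86 ± 0.47 (standard error of the fit, here and below), and within slide 1 and slide 3 it was 5.69 and 6.02. With normexp background correction (offset 50), which raises dim signals, it was 1.88, below the 2.21 of Oasl1.

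Mx2, the cytoplasmic Mx GTPase, has its probe on the plus strand of chromosome 16 from 97782327 to 97782386. Unlike Mx1 it was above background on all 6 arrays. Its levels were 0.37 and 0.82 on the 3 day GHCre arrays and -0.91 and -2.24 on the 3 day control arrays. Both GHCre arrays were above both controls, and the controls were further from each other than the GHCre arrays were. The difference was 2.17 ± 0.63, a fold of 4.50, and within the slides it was 1.28 and 3.06.

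Oasl1 and Oasl2, the OAS-like genes, were the members with the tightest replicates among those that were higher and above background on all 6 arrays. Oasl1, read on chromosome 5 from 115387861 to 115387920, plus strand, was at 0.62 and 0.39 on the 3 day GHCre arrays and -2.88 and -3.60 on the 3 day control arrays. The replicates of each group differed by less than 1 log2 unit, while the groups differed by 3.75 ± 0.48, a fold of 13.4. Within the slides the difference was 3.50 and 3.99. Oasl2, read from 115362168 to 115362227 on the plus strand, was at 1.67 and 0.86 in GHCre and -0.71 and -1.14 in control. Its difference was 2.19 ± 0.51, a fold of 4.56, with 2.38 and 2.00 within the slides.

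Oas2 encodes a synthetase built of a repeated unit and is read on the minus strand of chromosome 5 from 121180343 to 121180402. Its signal was 316 and 101 on the 3 day GHCre arrays and 3.58 and 9.26 on the 3 day control arrays. The levels were 0.08 and -1.56 in GHCre and -5.70 and -4.76 in control, where the probe was not above background on either array. In this scaling Oas2 was at least 8.96-fold higher in GHCre, the measured difference was 4.49 ± 0.77, and within the slides it was 5.78 and 3.20. With normexp background correction the difference was 1.52, which is less than that fold, so the bound is no minimum over the alternatives.

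Oas3, the largest of the synthetases, did not separate the groups. Its probe, on the minus strand of chromosome 5 from 121203598 to 121203657, was at -3.99 and -2.80 on the 3 day GHCre arrays and -3.28 and -5.44 on the 3 day control arrays. Replicate 2 of the controls was not above background, and replicate 1 lay between the GHCre arrays. The difference was 0.96 ± 0.95, and within slide 1 and slide 3 it had opposite signs, at -0.71 and 2.64. Without replicate 2 of the controls it was -0.12.

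The 3 members of the Oas1 group, the small synthetases that are present in many copies in the mouse, did not move together. Oas1a, the copy regarded as closest to human OAS1, is read by 2 probes on the minus strand of chromosome 5. Oas1g and Oas1b lie on the same chromosome. Probe 1, from 121346735 to 121346794, was at 0.37 and -1.54 on the 3 day GHCre arrays and -0.79 and -4.72 on the 3 day control arrays, the last not above background. The groups overlapped and the difference was 2.17 ± 1.59. It was 1.15 and 3.18 within the slides, and only 0.20 without replicate 2 of the controls. Probe 2, from 121348338 to 121348397, had a difference of 0.70, with 1.42 and -0.02 within the slides.

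Oas1g was near the floor of the arrays. Probe 1, on the minus strand from 121326151 to 121326210, was at -4.66 and -3.86 on the 3 day GHCre arrays, the first not above background. On the 3 day control arrays it was at -4.56 and -5.51, neither above background. The difference of 0.77 ± 0.59 lay between overlapping groups and has no bound above 1. Probe 2, from 121326271 to 121326330, was above background on no array.

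Oas1b, the gene that carries flavivirus resistance in wild mice, was bright on every array and ran the other way. Probe 1, on the plus strand from 121274109 to 121274168, had a signal of 10667 and 9769 on the 3 day GHCre arrays and 11348 and 11048 on the 3 day control arrays. As levels these were 5.16 and 5.04 in GHCre and 5.93 and 5.46 in control, a difference of -0.60 ± 0.43. Probe 2, from 121274126 to 121274185, differed by -0.55 with no overlap. Probe 3, from 121273890 to 121273949, differed by -0.34 with overlapping groups. Within the slides all 3 probes were lower in GHCre as scaled levels. Before scaling, probe 3 on slide 1 had a higher signal in GHCre, 2679 against 2021 in control. The other unscaled signals within the slides were lower in GHCre. The size of the Oas1b difference thus depends on the scaling.

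**Figure D2:**
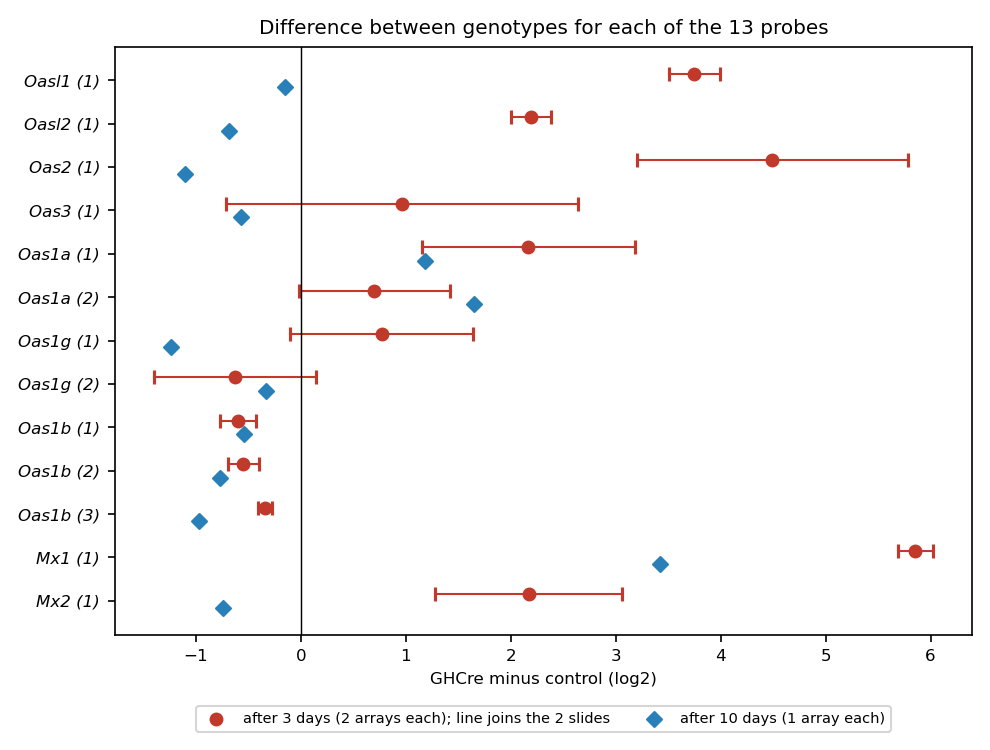
Difference between genotypes in log2 for each of the 13 probes. Circles are the 3 day means (2 arrays a group) with a line that joins the values within slide 1 and slide 3, and diamonds are the 10 day values (1 array a group). All 3 Oas1b probes lie left of 0 at both times, and Mx1 lies right of 0 at both.

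The OAS genes sit together on chromosome 5, which allows the members to be set beside the copies that were not picked. In mm9 order the probes run Oasl2 and Oasl1, then Oas2, Oas3, Oas1e, Oas1c, Oas1b, Oas1f, Oas1h, Oas1g, Oas1a and Oas1d, the last 10 over 191312 bases. Of these 12 tested OAS genes, 4 were higher on both 3 day GHCre arrays, 3 were lower on both and 5 overlapped. Over all genes 16.7% were higher and 21.3% lower in this way. The higher OAS genes other than Oas1f are members chosen on this comparison, so nothing is read from the counts. Oas1f, an Oas1 copy beside Oas1b, was at -2.82 and -3.57 on the 3 day GHCre arrays and -3.98 and -5.63 on the 3 day control arrays. Neither control was above background, and Oas1f was at least 1.63-fold higher in GHCre. It passed the filter on dim probes through its 3 day GHCre arrays alone, so no p is given. Oas1d and Oas1e, further copies, differed by -0.72 ± 0.42 and -0.75 ± 0.50 (adjusted p = 0.859 and 0.864 with limma). Oas1c differed by -0.87 ± 0.68 with overlapping groups. Genes with measured differences of opposite sign thus lie side by side in the cluster, though limma called no gene on the array in this comparison. Those that were lower, namely Oas1b, Oas1d and Oas1e, were above background on all 6 arrays.

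**Figure D3:**
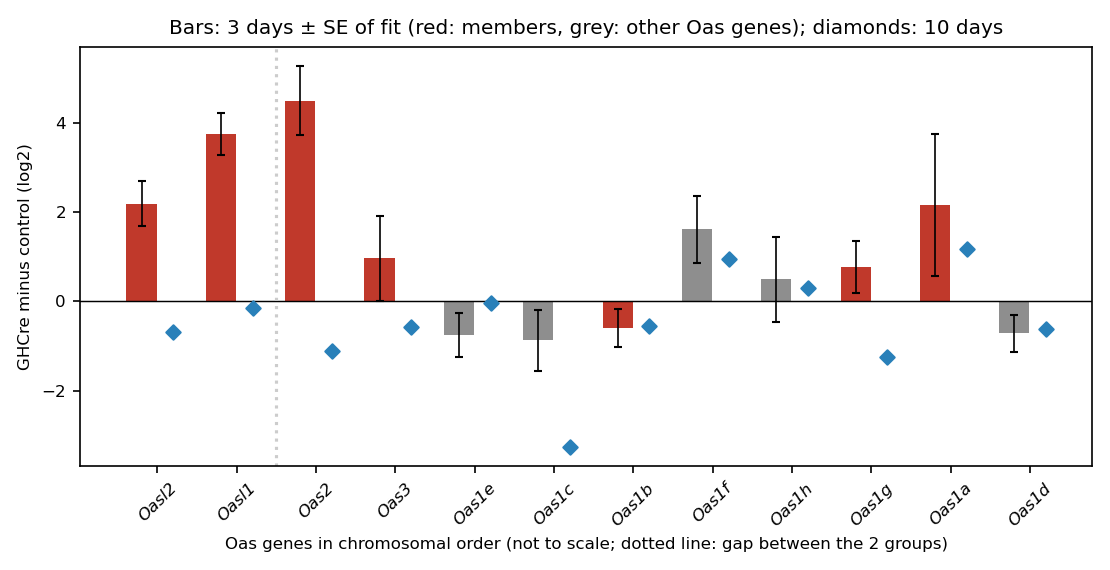
Difference between genotypes (GHCre minus control, log2) after 3 days for the 12 OAS genes in their order along chromosome 5, with the standard error of the fit. Red bars are members, grey bars other copies, diamonds the 10 day differences (1 array a group), and the dotted line parts the 2 OAS-like genes from the other 10. Oas1e, Oas1c, Oas1b and Oas1d lie below 0 between or beside genes above 0.

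The stretches just before the transcription start are shown because these genes are textbook targets of the interferon-stimulated response element (ISRE). RefSeq promoter sequence in GRCm38.p6 was at hand for 5 members, Oas1a, Oas1g, Oas3, Oasl1 and Oasl2. Its core, GAAA followed by any 2 bases and then GAAA, was searched on both strands of the 250 bases before the start, and 2.98% of 32851 mouse promoters of that length hold it. Oas1a has 2 overlapping matches, whose first bases lie 20 and 14 bases before the start, Oas1g has 2 at 18 and 12 bases, Oas3 has 1 at 75 bases, and Oasl1 and Oasl2 have none in this window. Matches are in capitals, and the coordinates are Oas1a chr5:120907526-120907775 minus strand, Oas3 chr5:120777660-120777909 minus strand and Oasl1 chr5:114922990-114923239 plus strand.
Oas1a: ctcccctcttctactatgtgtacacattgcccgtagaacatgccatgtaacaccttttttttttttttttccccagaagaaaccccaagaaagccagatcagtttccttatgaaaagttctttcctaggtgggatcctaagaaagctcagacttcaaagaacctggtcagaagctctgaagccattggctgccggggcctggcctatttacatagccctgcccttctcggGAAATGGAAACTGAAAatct
Oas3: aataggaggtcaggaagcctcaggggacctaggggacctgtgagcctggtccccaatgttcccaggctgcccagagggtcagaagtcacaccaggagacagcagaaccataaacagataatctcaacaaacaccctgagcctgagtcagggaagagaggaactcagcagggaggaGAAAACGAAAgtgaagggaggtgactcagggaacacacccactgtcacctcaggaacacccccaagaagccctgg
Oasl1: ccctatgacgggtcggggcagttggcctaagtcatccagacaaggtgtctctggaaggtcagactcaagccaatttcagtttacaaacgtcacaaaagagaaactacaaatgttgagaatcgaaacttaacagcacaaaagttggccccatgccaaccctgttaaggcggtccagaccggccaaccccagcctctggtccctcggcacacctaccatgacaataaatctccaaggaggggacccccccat
The Oas1a and Oas1g windows are copies of each other, with 82.8% identity (212 of 256 alignment columns). The GAS element TTCNNNGAA, searched in the same way, is in 7.02% of promoters and among these 5 only in Oas1a, 98 bases before the start. Oasl1 and Oasl2, which have no match of either motif here, were higher on both 3 day GHCre arrays. Oas1a, Oas1g and Oas3, which have the ISRE core, had overlapping groups. Of these, Oas1g and Oas3 were above background on only 3 arrays each. All 5 are members chosen on that comparison, and a link between motif and difference was not tested. No match says only that these letters are not in this window.

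After 10 days each genotype had 1 array. In GHCre 7 of the 9 members were lower than in control, as were 50.1% of all genes, and the median difference was -0.57 against 0.00 over all genes. By size, 2 members were at least 2-fold higher in GHCre (12.7% of all genes) and 2 were at least 2-fold lower (14.0%). With normexp background correction none of these 4 reached 2-fold. These p-values assume that a lone array varies like the 3 day arrays. No gene passed limma's adjusted p threshold in this comparison either (0% called), and 631 had an unadjusted p under 0.05. Mx1 passed the filter on dim probes through its GHCre arrays alone, so no p is given for it.

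Mx1 kept its direction. It had a signal of 48.7 on the 10 day GHCre array, above background, and 4.27 on the 10 day control array, not above background, and was at least 2.73-fold higher in GHCre. The measured difference was 3.42 ± 0.67, from a gene that passed the filter on dim probes through its GHCre arrays alone. With normexp background correction it was 0.86 or, with quantile normalization, 0.84. Oas1a was the other member higher in GHCre, at -2.38 against -3.56 in control, where it was not above background. Its measured difference was 1.18 ± 2.25 (0.23 with normexp), a fold of 2.26 that is no minimum. Its probe 2 had a signal of 66.0 in GHCre and 19.7 in control, a difference of 1.65.

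The remaining members were lower on the 10 day GHCre array. Oas2 was at -3.52 in GHCre and -2.41 in control, both above background, a difference of -1.11 ± 1.09 (-0.51 with normexp). Oas1g was at -3.83 in GHCre and -2.59 in control, a difference of -1.24 ± 0.83 (-0.45 with normexp). Smaller differences were found for Mx2 (-0.74 ± 0.89), Oasl2 (-0.68 ± 0.72), Oas1b (-0.54 ± 0.61) and Oasl1 (-0.15 ± 0.67). Oas3 was above background on neither array. Apart from those of Oas1g and Oas2, these differences were smaller than their standard errors.

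Between the 2 times, the levels of 4 members moved in opposite directions in the 2 genotypes. Oasl1 was at -1.28 on the 10 day GHCre array against 0.62 and 0.39 on the 3 day GHCre arrays, and at -1.13 on the 10 day control array against -2.88 and -3.60 on the 3 day control arrays. Oasl2 was at 0.02 on the 10 day GHCre array against 1.67 and 0.86 after 3 days, and at 0.70 on the 10 day control array against -0.71 and -1.14. Mx2 was at -0.83 on the 10 day GHCre array against 0.37 and 0.82, and at -0.09 on the 10 day control array against -0.91 and -2.24. Oas2, at -3.52 on the 10 day GHCre array and -2.41 on the 10 day control array, also lay below both 3 day GHCre arrays and above both 3 day controls. The 10 day arrays of both genotypes thus lay between the 3 day levels of GHCre and those of control, and the 4 members had both moves together, as did 9.40% of all genes. The same 4 were higher in GHCre after 3 days without overlap and lower in GHCre after 10 days, as were 8.18% of all genes. Both patterns use the 3 day values that the members were chosen on, so nothing is read from these shares.

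Counted 1 genotype at a time, 7 members were lower on the 10 day GHCre array than on both 3 day GHCre arrays (28.1% of all genes), with a median change of -1.78. In control 5 were higher on the 10 day array than on both 3 day arrays (32.3% of all genes), with a median change of 1.49. The 10 day control lay alone on its slide, so this change cannot be told apart from slide. Both counts use the 3 day values that the members were chosen on, so nothing is read from the shares. The control side includes Oas1g and Oas2, which were not above background on either 3 day control array and were at least 2.48-fold and 2.81-fold higher after 10 days. For Mx1 the 10 day minus 3 day value was -2.45 ± 0.58 in GHCre, while no control array was above background at either time. Oas1b differed between the times by 0.20 ± 0.53 in GHCre and 0.14 ± 0.53 in control, less than the standard error. The difference between the 10 day and 3 day effects was called for 0% of all genes by limma, with 824 at an unadjusted p under 0.05.

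**Figure D4:**
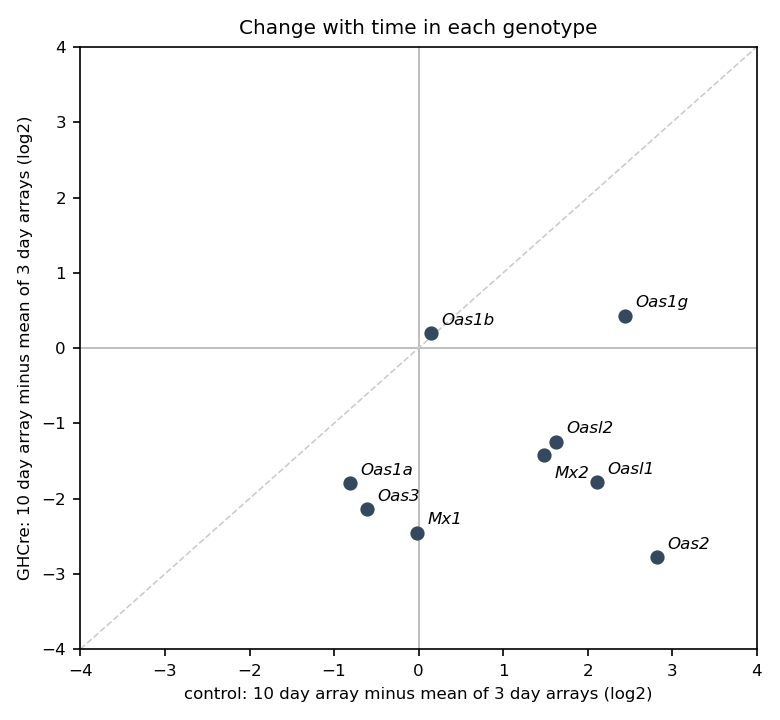
Change of each member between the 2 times, as the 10 day array minus the mean of the 3 day arrays in log2, in GHCre (vertical axis) and in control (horizontal axis). On the dashed line both genotypes would change alike. The 10 day control array lay alone on its slide, so the control change cannot be told apart from slide. Oas2, Oasl1, Oasl2 and Mx2 lie at the lower right, where GHCre is below 0 and control above it.

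The rest of the interferon system was read from lists of its genes by role. The shares of all genes given beside the first list hold for the counts of the others as well, and nothing particular to a list is read from them. Among 24 receptor and signalling genes, all tested, 16 were higher on both 3 day GHCre arrays and 2 were lower, against 16.7% and 21.3% of all genes, with a median difference of 0.75 after 3 days and 0.15 after 10 days. None passed the adjusted p threshold at either time. Ifnlr1, the receptor chain for type III interferon, was at -0.23 and 0.17 on the 3 day GHCre arrays and -5.67 and -4.25 on the 3 day control arrays, where it was not above background. It was at least 14.6-fold higher in GHCre (adjusted p = 0.653 with limma), and after 10 days it was at -2.26 in GHCre and -2.89 in control. Usp18, which shuts off signalling at the type I receptor, was at -0.08 and -0.47 in GHCre and -2.50 and -1.79 in control after 3 days (adjusted p = 0.705 with limma). After 10 days it was at -3.23 in GHCre and -1.40 in control. Irf8, an interferon-responsive transcription factor, had a 3 day difference of 2.08 ± 0.59 (limma adjusted p = 0.718) and a 10 day difference of 0.11 ± 0.84. Tyk2, a Jak kinase of the receptors, was at least 1.09-fold higher in GHCre after 3 days and at least 4.28-fold lower after 10 days, from a dim probe.

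Of 18 interferon ligand genes, 15 were on the array and 10 were tested. On both 3 day GHCre arrays 2 of them were higher, near the 16.7% of all genes, and 0 were lower, against 21.3%. None passed the adjusted p threshold. Ifnb1, interferon beta, was at -0.33 and -1.76 on the 3 day GHCre arrays and -5.90 and -4.88 on the 3 day control arrays, where it was not above background. It was at least 7.21-fold higher in GHCre. Ifnb1, like Ifnab below, passed the filter on dim probes through GHCre arrays alone, so no p is given. On the 10 day arrays Ifnb1 was at -4.20 in GHCre and, not above background, at -4.70 in control. Ifnab, an alpha interferon gene, was at least 2.64-fold higher in GHCre after 3 days, and Ifna5 and Ifna14 differed by 1.72 ± 1.26 and 1.62 ± 1.14 with overlapping groups.

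Sensors of double-stranded RNA and their adaptors act before interferon is made. Of 10 such genes 9 were tested, of which 2 were higher on both 3 day GHCre arrays and 1 was lower, with a median of 0.62, counts that are near the shares over all genes. Sting1, the adaptor of the DNA-sensing pathway, was at 4.86 and 3.65 in GHCre and 2.50 and 2.19 in control after 3 days (difference 1.91 ± 0.59). Eif2ak2, the kinase PKR that halts translation when it binds double-stranded RNA, differed by 1.02 ± 0.41. Mavs, the mitochondrial adaptor, differed by -0.89 ± 0.41, and Dhx58, the sensor LGP2, by 1.18 ± 1.00 with overlap. Tlr3 was above background on no array.

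The ISG15 system, which attaches a ubiquitin-like protein to others, was tested in full. On both 3 day GHCre arrays 3 of its 4 genes were higher, with a median of 1.09, and after 10 days the median was -0.43. Isg15, the modifier itself, differed by 1.25 ± 0.65, Uba7, its activating enzyme, by 0.92 ± 0.44, Herc6, its mouse ligase, by 1.47 ± 0.44 and Ube2l6, its conjugating enzyme, by -0.39 ± 0.80. Among 9 tested dynamin relatives of Mx, 2 were higher on both 3 day GHCre arrays and 1 was lower, near the shares over all genes, with a median of 0.30. Atl1, atlastin 1, was at least 4.77-fold higher, Dnm1, dynamin 1, differed by 1.21 ± 0.95, Mfn2, mitofusin 2, by 0.96 ± 0.57 and Atl3, atlastin 3, by -1.11 ± 0.63. Of the 8 genes of the OAS pathway beyond the members, 1 was higher and 2 were lower, again near those shares. In these lists too, none passed the adjusted p threshold at either time.

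**Figure D5:**
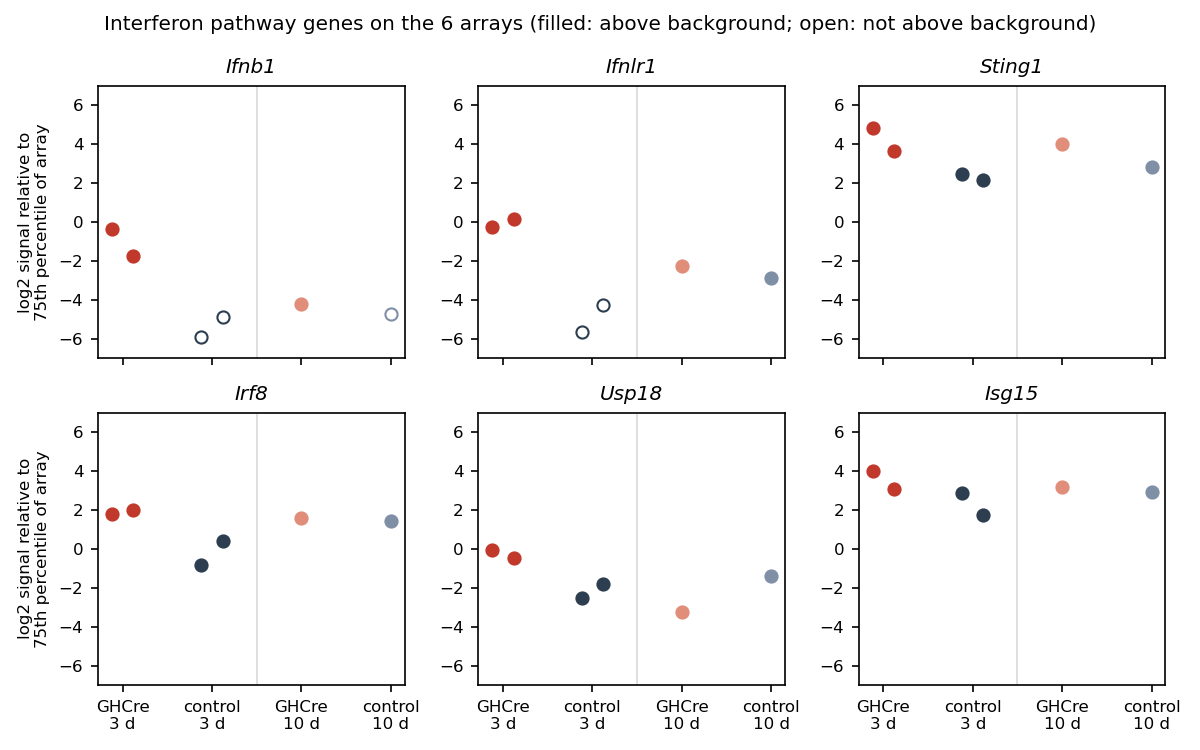
Levels of 6 interferon pathway genes on the 6 arrays, as log2 signal relative to the 75th percentile of the array, filled where above background. Ifnb1 and Ifnlr1 are above background on both 3 day GHCre arrays and on neither 3 day control array, and each gene is higher on both 3 day GHCre arrays.

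The genes whose pattern was most like that of the members were ranked by the root mean square difference in log2 level from the mean member profile over the 6 arrays, with each gene centred on its own mean. Over 16315 genes with a symbol the median distance was 1.22. The nearest 8 were Irgm2 (0.21), Ddx19a (0.25), Ppil3 (0.28), Fbln5 (0.28), Foxc2 (0.29), Zfp423 (0.30), Taf5 (0.31) and Cd34 (0.31). Irgm2, an interferon-inducible GTPase, was at 3.02 and 2.52 on the 3 day GHCre arrays and 1.47 and -0.07 on the 3 day control arrays, then 1.66 in GHCre and 1.68 in control after 10 days. Among the members Mx2 (0.34), Oasl2 (0.37) and Oasl1 (0.58) lay nearest to the mean profile and Mx1 (1.79) furthest from it. Oas3 (0.98), Oas1g (1.13), Oas1a (1.14), Oas2 (1.15) and Oas1b (1.27) lay closer to the median distance of 1.22 than to the profile. The profile thus describes Mx2, Oasl2 and Oasl1 better than the other members, and it includes the 3 day values they were chosen on. The points share 6 arrays and their scaling, so this is a description.

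Markers of other cells in the sort were summed as linear signal relative to the 75th percentile. For counts of genes higher or lower on both 3 day GHCre arrays, the shares over all genes were 16.7% and 21.3%. Nothing particular to a list is read from these counts. Lymphocyte markers, 9 of 12 tested, summed to 37.4 and 33.5 on the 3 day GHCre arrays and 17.3 and 22.2 on the 3 day control arrays, and to 28.5 in GHCre and 20.7 in control after 10 days. Nkg7 and Cd3e make up most of that sum, and 4 of the 9 genes were higher on both 3 day GHCre arrays while 2, Cd4 and Cd8a, were lower. Fibroblast and mural markers, 11 of 11 tested, summed to 274 and 228 in GHCre and 208 and 141 in control after 3 days, with 7 genes higher on both GHCre arrays. Endothelial markers, 8 of 9 tested, summed to 8.07 and 5.94 in GHCre and 5.31 and 4.48 in control. After 3 days these sums were higher on both GHCre arrays, as the 5 members were, and their part in that difference was not tested. After 10 days the lymphocyte sum was still higher in GHCre. The fibroblast and mural sum was then 173 in GHCre and 177 in control, and the endothelial sum 5.66 in GHCre and 6.33 in control. Macrophage and myeloid markers, 11 of 14 tested, had sums of 161 and 165 in GHCre and 233 and 196 in control, mostly from Itgam. Of these 11, 3 were lower and 2 higher on both GHCre arrays, with a median difference of -0.16. Dendritic markers, 5 of 6 tested, summed to 7.01 and 5.56 in GHCre and 7.26 and 6.92 in control, mostly from Siglech. The other way from this sum, 3 of the 5 were higher on both GHCre arrays and 1 was lower, with a median difference of 1.05. Of these lists Aif1, Mrc1, C1qa, Xcr1, Cd79b and Ms4a1 were above background on no array.

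For the sorted population itself, 9 of 14 pituitary stem and progenitor markers were tested, and Sox2 and Hesx1 were among those above background on no array. Their sum was 47.6 and 46.1 on the 3 day GHCre arrays and 47.4 and 40.2 on the 3 day control arrays. All 4 genes of the side population and Sca1 gate were above background on all 6 arrays. Hormone cell markers, 8 of 9 tested, summed to 1617 and 1323 in GHCre and 2282 and 2171 in control after 3 days, and to 1828 in GHCre and 1762 in control after 10 days. These sums are mostly Prl, the prolactin transcript. After 10 days the median difference of the 8 genes was -3.78, and 6 of them were at least 2-fold lower in GHCre, as were 14.0% of all genes. Hormone transcripts were thus present in every sample of the sorted fraction.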

How the data were processed

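Per the file headers, the 6 single-colour arrays were read by Agilent Feature Extraction 10.7.3.1. Its processed signal, as deposited, is a background-subtracted intensity, and the deposited flags mark spots well above background. The authors' deposited series table holds log2 values for 38017 probes, which correlated at 0.9999 or more with the quantile normalized signal on every array and was used as an alternative. Its processing is not given in the sources used here. Arrays have no read depth, and their number limits the precision.

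Replicate spots among 43020 were averaged on the log2 scale without flagged ones, and 32 probe values whose spots were all flagged were kept. No spot was saturated. Each array was scaled by its 75th percentile. Through accessions 27234 probes were named with current symbols. A gene was read by its brightest probe, tested where well above background on at least 2 of 6 arrays. All 9 members passed, 5 of them without signal on every array, and Mx1 through the 3 GHCre arrays alone. A model of 4 group means was fitted with limma 3.58.1 in R 4.3.3 (2 residual degrees of freedom, from the 3 day arrays), with Benjamini-Hochberg adjustment and a threshold of 0.05, and was tested on simulated data. Folds written as at least hold for this scaling and are not minima over the alternatives. Coordinates are mm9 from the files, and promoters are from RefSeq GRCm38.p6.

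The members and lists were chosen with earlier results of these data known. Besides the members, up to 4 genes of lowest p in each list, the nearest 8 genes in pattern and genes of the sort are named, and marker genes above background on no array were named after their values were seen. Alternatives were quantile normalization, normexp background correction (offset 50) with either scaling, the series table, no filter, the mean of probes, an intensity trend, the slide or the replicate number as a block, and each 3 day array left out. Plots were made in Python 3.11.15 with matplotlib 3.10.9.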

Additional observations from a re-analysis of the deposited data

Results flagged for a closer look

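For 4 members both 3 day GHCre arrays lay above both control arrays while the 10 day GHCre array lay below its control, and no p is given for this difference because the members were chosen on the 3 day values. Over all genes tested, limma called 0% for the difference between the 10 day and 3 day effects, with 824 at an unadjusted p under 0.05. Oas2 differed by -1.11 after 10 days against 4.49 after 3 days. Oasl1 differed by -0.15 after 10 days against 3.75. Oasl2 differed by -0.68 after 10 days against 2.19. Mx2 differed by -0.74 after 10 days against 2.17. This pattern was found in 8.18% of all genes tested. Its 3 day part was used to choose the members, so nothing is read from that share. Of the 3484 genes that were higher in GHCre after 3 days without overlap, 1711 were lower after 10 days.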

How the results depend on the processing

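With 2 arrays a group after 3 days and 1 after 10 days, the number of genes called was 0 under every alternative run for both comparisons and their difference. The lowest adjusted p for the 3 day comparison lay between 0.385 and 1.00 over these alternatives, and 784 to 2284 genes had an unadjusted p under 0.05. The median over the members stayed above 0 after 3 days, from 1.51 to 2.83 with an array left out, and below 0 after 10 days. The members were chosen on the 3 day values of these same arrays, so nothing is read from the 3 day median staying above 0. Normexp correction, which raises dim signals, gave 3 day differences of 1.88 for Mx1, 1.52 for Oas2, 2.21 for Oasl1 and 0.79 for Oas1a with the percentile scaling, and there Oas1g and Oas3 were at -0.22 and -0.08. With normexp and quantile normalization the 10 day difference of Oas3 was 0.018, and it is below background on both arrays. The mean of both probes gave 0.07 for Oas1g after 3 days. With the replicate number as a block, 0 genes were called and the 3 day and 10 day medians over the members were 2.17 and -0.57. Deviations of same-numbered arrays correlated at 0.087, over 2 pairs, so the numbers are not taken to pair samples. The slide as a block was not run for 10 days or for the difference, because the 10 day control lay alone on its slide.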

Other observations

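Stat2 and Irf9, transcription factors of the interferon response, are named after their values were seen. Stat2 was at 2.96 and 2.16 on the 3 day GHCre arrays and 2.04 and -2.05 on the 3 day control arrays, so its difference of 2.56 ± 1.52 rests on replicate 2 of the controls. After 10 days it was at 1.27 in GHCre and 2.38 in control. Irf9 differed by 0.83 ± 0.51 after 3 days and 0.35 ± 0.73 after 10 days. Neither passed the adjusted p threshold in limma at either time.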
